A study of Homo sapiens with 6 samples.

Results

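The pluripotency factors and stem cell RNAs described here are 10 genes followed through teratomas grown from human embryonic stem cells: the transcription factors POU5F1, NANOG and SOX2, the RNA-binding proteins LIN28A and LIN28B, the nuclear protein DPPA4, the RNA-binding protein L1TD1, and the non-coding RNAs MIR302CHG, XACT and PCAT14. They were chosen by symbol, and all 10 were found among 38606 human features counted in each library. All 10 passed the filter on low counts, which left 26275 genes for testing.

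The 6 libraries came from teratomas of H1 cells, a human embryonic stem cell line, in 3 groups of 2: cells with unaltered lncPRESS1 (WT), cells with lncPRESS1 knocked out (KO), and cells labelled ΔATG (DATG in the plots), a lncPRESS1 allele that the labels do not describe further. lncPRESS1 is a long non-coding RNA of human embryonic stem cells. Cells of all 3 groups were mixed with matrigel and grown in the flank of immunodeficient NSG mice, and nuclei of the frozen tumours were sequenced by the droplet method of 10x Genomics, which counts molecules by unique molecular identifiers (UMIs). Neither the age of the tumours nor the origin of paired libraries (separate tumours, clones or 1 tumour) is stated in the labels, so p-values measure only the spread between these libraries. Libraries are written below as WT 1, WT 2, KO 1, KO 2, ΔATG 1 and ΔATG 2.

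A teratoma is a tumour in which pluripotent cells have differentiated into tissues of the 3 germ layers, sometimes leaving undifferentiated cells behind. In pluripotent cells POU5F1 (OCT4), SOX2 and NANOG bind many of the same regulatory sites and maintain one another's transcription. LIN28A and LIN28B block maturation of the let-7 microRNAs, which otherwise repress growth genes and LIN28 itself, while MIR302CHG is the host transcript of the miR-302/367 cluster that is transcribed with OCT4 and SOX2 in these cells. SOX2 and LIN28B are also known outside pluripotent cells, SOX2 in neural stem cells and LIN28B in fetal tissues.

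On GRCh38 (GENCODE 29) the 3 core factors lie at chr6:31164337-31180731 (POU5F1, minus strand), chr12:7787794-7799141 (NANOG, plus) and chr3:181711924-181714436 (SOX2, plus). The LIN28 genes lie at chr1:26410778-26429722 (LIN28A, plus) and chr6:104936616-105083332 (LIN28B, plus), DPPA4 at chr3:109326141-109337572 (minus) and L1TD1 at chr1:62194831-62212328 (plus). XACT lies at chrX:113616300-114059289 (minus) and PCAT14 at chr22:23536881-23547797 (plus). POU5F1 overlaps PSORS1C3 on the same strand and TCF19 on the opposite strand, so its counts may share reads with them.

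The microRNAs behind the results on MIR302CHG and the LIN28 genes are shown first, with the seed (bases 2 to 8, which pair with targets) in capitals, as given by RefSeq on GRCh38.p14. The first 5 lie inside MIR302CHG (ENSG00000249532, chr4:112646476-112650051, minus strand), which itself lies wholly inside the protein-coding gene LARP7 on the opposite strand. The 4 miR-302 forms share 1 seed, and miR-367 has another.
hsa-miR-302a-3p: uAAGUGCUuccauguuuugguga
hsa-miR-302b-3p: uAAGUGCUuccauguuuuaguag
hsa-miR-302c-3p: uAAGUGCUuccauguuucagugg
hsa-miR-302d-3p: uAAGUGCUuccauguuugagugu
hsa-miR-367-3p: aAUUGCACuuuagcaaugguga
hsa-let-7a-5p: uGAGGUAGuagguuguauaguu
The libraries counted 3′ ends of longer RNAs, so MIR302CHG was measured as the host transcript and no mature microRNA was measured. The let-7a-1 hairpin (chr9:94175957-94176036, plus strand) is shown because LIN28 proteins are known to hold let-7 precursors by a GGAG in their loop, and the single GGAG, starting at base 49 of the 80, is in capitals.
let-7a-1 hairpin: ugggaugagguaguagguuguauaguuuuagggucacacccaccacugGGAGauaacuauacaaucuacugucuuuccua

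POU5F1 binds the octamer ATGCAAAT and SOX2 binds CATTGT, and the NANOG promoter is the textbook case in which an octamer and a SOX site stand side by side. Both promoters below are the 250 bases before a RefSeq start (GRCh38.p14), printed 5′ to 3′ on the gene's strand, with matches to ATGCAAAT, to its overlapping 7-base form TTTGCAT, or to CATTGT on either strand in capitals.
NANOG promoter: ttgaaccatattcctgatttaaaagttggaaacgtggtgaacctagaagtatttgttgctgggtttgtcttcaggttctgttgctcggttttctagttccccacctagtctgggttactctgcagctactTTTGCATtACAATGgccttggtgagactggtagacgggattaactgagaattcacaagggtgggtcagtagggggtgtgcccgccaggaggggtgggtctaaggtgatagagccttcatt
MIR302CHG promoter: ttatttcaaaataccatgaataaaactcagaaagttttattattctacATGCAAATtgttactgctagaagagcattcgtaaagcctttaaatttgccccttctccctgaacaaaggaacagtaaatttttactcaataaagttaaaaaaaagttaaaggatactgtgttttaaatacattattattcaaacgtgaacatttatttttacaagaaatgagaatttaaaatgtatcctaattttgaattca
The NANOG window is chr12:7789152-7789401 (plus strand) and holds TTTGCAT starting 120 bases and CATTGT, read on the other strand, 112 bases before the start. The MIR302CHG window is chr4:112650052-112650301 (minus strand) and holds ATGCAAAT starting 202 bases before the start. Motifs were counted in windows of 300 bases, from 250 before to 50 after the start, and RefSeq gave 9 such windows for 7 of the 10 genes. Of these 9, ATGCAAAT was in 1 window (MIR302CHG), TTTGCAT in 3 (MIR302CHG, NANOG and SOX2) and CATTGT in 2 (NANOG and LIN28B), against 1.63%, 3.94% and 9.29% of all 35116 windows of 300 bases. A match is a description of these letters, not a measured binding site.

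After filters, 49204 human nuclei were kept, 5254 to 10932 per library, with a median of 2429 to 3842 UMIs per nucleus and 19990677 to 33262662 human UMIs per library. Libraries shared 12 to 51 cell barcodes per pair, at most 0.447% of the smaller library's barcodes. ΔATG 2 stood apart: the first principal component of all genes carried 65.4% of the variance and placed it at -111, with the other libraries between -14.02 and 64.4. The targeted gene, LNCPRESS1, was counted 5 and 2 times in the WT libraries, 3 and 0 times in KO and 0 and 3 times in ΔATG, too rarely to check the labels. Nuclei were clustered without the 10 genes, and clusters were called by type with the suffix "-like" from fixed marker lists that do not hold them.

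The clearest feature of the 10 genes was their gathering in a rare group of nuclei. A cluster of 285 nuclei, 0.579% of the total, was called pluripotent-like because 9 of 14 fixed markers were raised in it, among them the NODAL co-receptor TDGF1, the DNA methyltransferase DNMT3B and the non-coding RNA ESRG. Its 285 nuclei fell unevenly over the libraries: 31 in WT 1, 41 in WT 2, 90 in KO 1, 2 in KO 2, 1 in ΔATG 1 and 120 in ΔATG 2. Replicates of KO and of ΔATG thus lay at opposite ends, and the group values overlap. The nuclei were deeper than others, with a median of 5373 against 2722 UMIs. Of the fixed lists for other types, 0 of 10 germ cell and 0 of 10 trophoblast markers were raised in it, with summed levels of 42.7 and 26.7 CPM (counts per 1000000 human UMIs) against 29.4 and 38.8 CPM in other nuclei, and 5 of 12 general epithelial markers were raised, among them the adhesion protein CDH1. Of the germ cell list 1 gene, TDRD9, was at 0 in these nuclei, and of the trophoblast list 4 were at 0. The part of other cell types in this cluster was not tested.

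POU5F1, the factor most restricted to pluripotent cells and the germ line, had 57.8% of all its UMIs in these 285 nuclei (95% Clopper-Pearson interval 53.7% to 61.8%, counting error only). MIR302CHG followed with 41.2% (39.0% to 43.4%). NANOG had 25.2%, DPPA4, a chromatin-associated protein of pluripotent cells, 24.4%, LIN28A 22.0%, PCAT14 21.4%, XACT 19.3% and L1TD1 16.7%. LIN28B had 2.74% and SOX2 2.38%, so nearly all UMIs of these 2 genes lay elsewhere. In ΔATG 2 alone the share was 82.2% for POU5F1, 71.6% for MIR302CHG, 61.1% for DPPA4, 55.3% for LIN28A, 53.0% for NANOG and 50.3% for XACT. ΔATG 2 gave 291 of the 342 UMIs of POU5F1 in these nuclei, so the pooled share rests mostly on that library. The share of POU5F1 was 22.2% in WT 1, 14.8% in WT 2, 28.6% in KO 1, 15.0% in KO 2 (3 UMIs) and 0% in ΔATG 1. For MIR302CHG it was 25.1%, 35.7%, 37.4%, 0% and 5.56% in the same order. With a finer clustering the pluripotent-like cluster held 758 nuclei (131, 191, 174, 25, 12 and 225, in the order of libraries above), and POU5F1 stood at 78.2 CPM in it, against 183 CPM in the 285 nuclei. Besides 8 of 14 pluripotent markers, 10 of 13 hepatocyte markers were raised in that larger cluster.

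**Figure D1:**
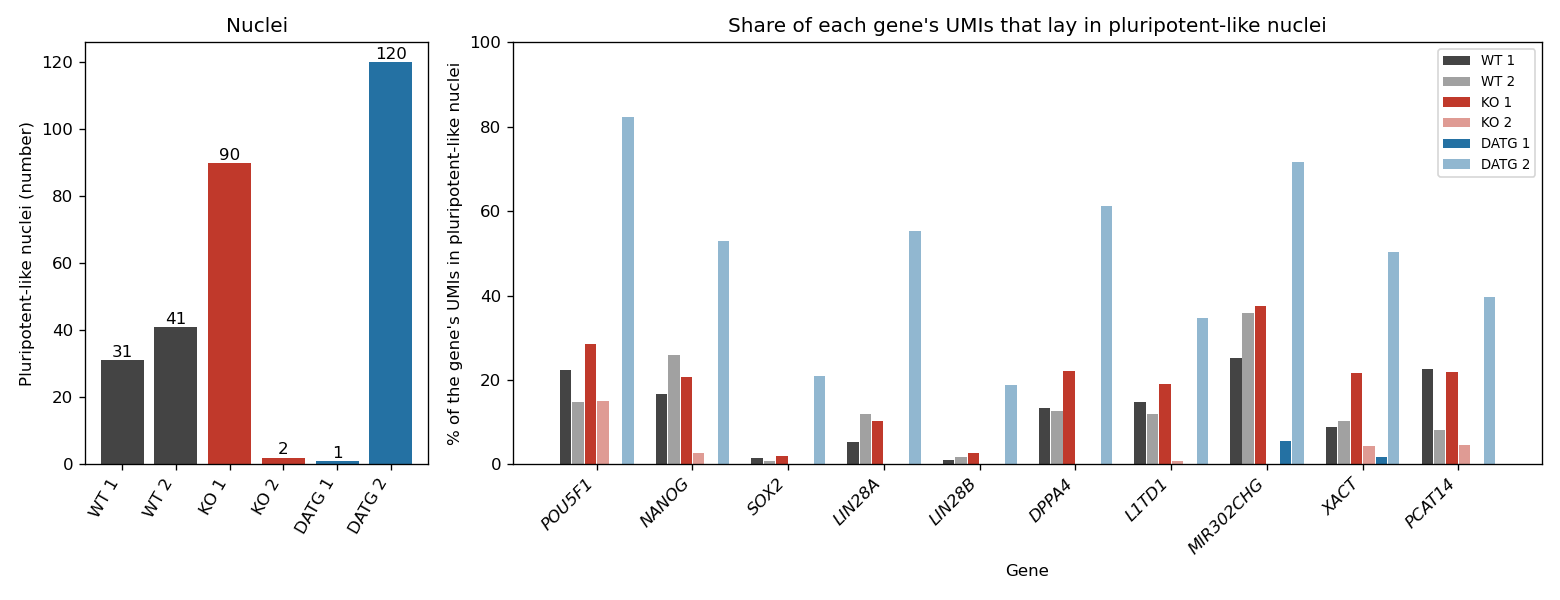
Left, number of pluripotent-like nuclei in each library (grey WT, red KO, blue DATG). Right, percent of each gene's UMIs that lay in those nuclei, 1 bar per library, pale for replicate 2. ΔATG 2, with 120 such nuclei, has the tallest bar for every gene, up to 82.2% for POU5F1, while SOX2 and LIN28B stay low in all other libraries.

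Within the pluripotent-like nuclei the libraries differed gene by gene. POU5F1 stood at 45.1 CPM in WT 1 (95% Poisson interval 21.6 to 83.0), 31.5 in WT 2 (13.6 to 62.1), 64.3 in KO 1 (43.4 to 91.8) and 318 in ΔATG 2 (283 to 357). ΔATG 2 lay above the other 3 libraries beyond counting error, at similar median depths of 5024 to 6113 UMIs per nucleus. LIN28A followed the same order of high and low, with 58.7 CPM in WT 1, 55.2 in WT 2, 68.6 in KO 1 and 206 in ΔATG 2. MIR302CHG did not: it stood at 379 CPM in WT 1, 429 in WT 2, 705 (631 to 786) in KO 1 and 314 (279 to 353) in ΔATG 2, so KO 1 was highest and ΔATG 2 lowest. PCAT14 was highest in WT 1, with 582 CPM (486 to 692), against 162 in WT 2, 189 in KO 1 and 201 in ΔATG 2. XACT, which coats active X chromosomes in human pluripotent cells, spanned less, from 890 CPM in WT 2 over 1038 in KO 1 and 1129 in WT 1 to 1340 in ΔATG 2. KO 2 and ΔATG 1, with 2 and 1 nuclei, gave too few counts for a level, and with 1 library of KO and 1 of ΔATG holding these nuclei, no group can be compared.

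The 10 genes also met in the same nuclei. A pluripotent-like nucleus had UMIs of a median of 6 of the 10 genes (quartiles 4 and 7), and other nuclei a median of 0 (quartiles 0 and 1). UMIs of all 10 genes were found in 5 nuclei, all of them pluripotent-like and 4 of them from ΔATG 2. Of 20 nuclei with 9 or more, 19 were pluripotent-like, and 17 came from ΔATG 2. Of 383 nuclei with 5 or more, 190 were pluripotent-like. By library these were 94 of 114 in ΔATG 2, 51 of 139 in KO 1, 21 of 83 in WT 1, 23 of 39 in WT 2 and 1 of 8 in KO 2. ΔATG 1 had 0 nuclei with 5 or more. The next largest share of those 383, 89 nuclei, was in an unnamed cluster led by RBPJL, MEG3 and PAX5, where the nuclei concerned had a median of 21007 UMIs and 34 came from WT 1 and 53 from KO 1. Depth moved with that count, and its part in it was not tested.

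Outside the pluripotent-like nuclei POU5F1 was rarely detected. A UMI of POU5F1 was found in 38.6% of pluripotent-like nuclei (10.8% after thinning each nucleus to 1000 UMIs), in 0.390% of mesenchyme-like and in 0.228% of neuron-like nuclei. Among 1389 mouse nuclei, which cannot transcribe the human gene, the share was 0.504% at a median of 259 human UMIs per nucleus, against medians of 2609 and 2809 UMIs in the mesenchyme-like and neuron-like nuclei. Shares in 11 of the 18 other classes and unnamed clusters were at or below this background and are not read as expression. The highest of the rest were 1.58% in the RBPJL-led cluster, whose median depth was 9083 UMIs, and 1.11% in the WNT3A-led cluster. Thinned to 1000 UMIs these shares were 0.15% and 0.357%. Depth differed from that of mouse nuclei, so shares above this background are not read as expression either. Human UMIs in mouse nuclei gave 18.7 CPM of POU5F1 (7.51 to 38.5). Its summed levels outside pluripotent-like nuclei lay within or below this interval. Whether POU5F1 was expressed outside pluripotent-like nuclei was not tested. Of 336 nuclei with at least 1 UMI of POU5F1, 110 were pluripotent-like, and of 78 with at least 2 UMIs, 62 were (79.5%). In a low-depth unnamed cluster led by the globin genes HBE1, HBG2 and HBA2, with a median of 920 UMIs per nucleus, POU5F1 stood at 65.0 CPM in ΔATG 2, 17.9 in KO 1, 4.33 in WT 1, 3.89 in WT 2 and 0 in KO 2 and ΔATG 1. ΔATG 2 and KO 1, the highest here, were also the libraries with most pluripotent-like nuclei, and the part of stray RNA in these values was not tested.

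NANOG, the third core factor, stood at 37.4 CPM in pluripotent-like nuclei and was detected in 17.2% of them. Elsewhere it was between 0 and 3.15 CPM in every class. No UMI of NANOG was found among 374718 human UMIs in mouse nuclei, with an interval of 0 to 9.84 CPM. The levels of NANOG in the other classes lie inside this interval, so its absence there cannot separate expression from stray RNA. The near-identical copy NANOGP8 had 2 to 9 UMIs per library. The sources used here do not give how reads matching both copies were counted, so these counts cannot show how many NANOG reads were lost.

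**Figure D2:**
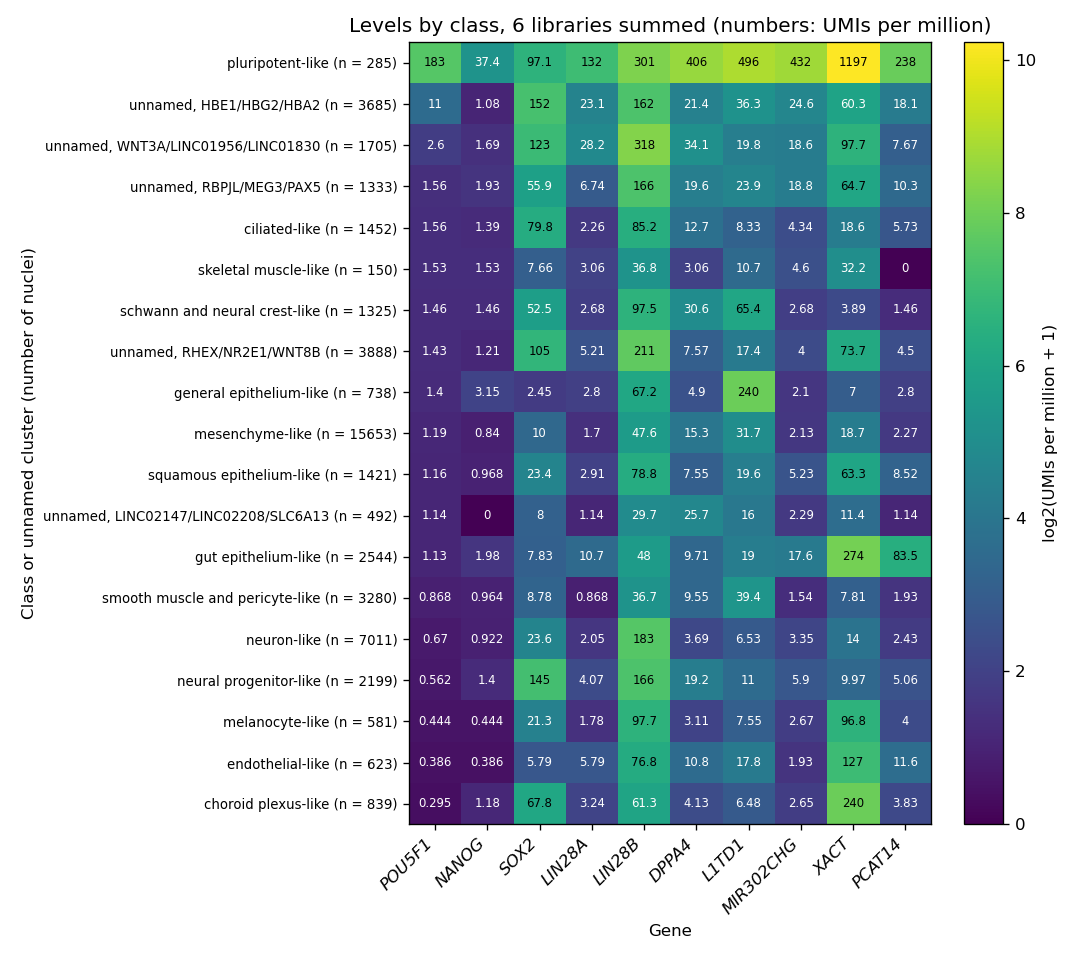
CPM of each gene (columns) in each class or unnamed cluster (rows, with numbers of nuclei), 6 libraries summed, on a log2 colour scale. Columns can be read down but not across, since genes differ in length. The top row, pluripotent-like nuclei, is highest for 8 genes, while SOX2 peaks at 152 and LIN28B at 318 in unnamed clusters.

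SOX2 was high in several neural classes. Its summed level was 145 CPM in neural progenitor-like nuclei, 123 and 105 CPM in the unnamed clusters led by WNT3A and by RHEX, which held 7 and 10 of 16 neural progenitor markers, and 79.8 CPM in ciliated-like nuclei, against 97.1 CPM in pluripotent-like nuclei. Its range over libraries was 73.2 to 265 CPM in neural progenitor-like nuclei (median 130) and 35.5 to 133 CPM in pluripotent-like nuclei (median 72.5), and these ranges overlap. It stood at 10.0 CPM in mesenchyme-like and 2.45 CPM in general epithelium-like nuclei. The low-depth globin-led cluster had 152 CPM of SOX2 (102 to 176 over libraries), and human UMIs in mouse nuclei gave 88.1 CPM (60.6 to 124). A UMI of SOX2 was found in 30.4% of neural progenitor-like nuclei and 2.30% of mouse nuclei, the latter at a median of 259 human UMIs. The part of stray RNA in the levels of SOX2 was not tested. SOX2 lies wholly inside the longer transcript SOX2-OT on the same strand, and the sources used here do not give how reads were shared between the 2, so values of SOX2 are uncertain to that extent.

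LIN28B, the other gene that was not highest in pluripotent-like nuclei, stood at 318 CPM in the WNT3A-led cluster (265 to 463 over libraries) and 301 CPM in pluripotent-like nuclei (158 to 355 over 4 libraries). It followed at 211 CPM in the RHEX-led cluster, 183 in neuron-like, 166 in neural progenitor-like nuclei and 166 in the RBPJL-led cluster. The ranges of these neighbours over libraries overlap, from 126 to 253 in neuron-like and from 121 to 306 in neural progenitor-like nuclei. Mesenchyme-like nuclei had 47.6 CPM and smooth muscle and pericyte-like nuclei 36.7 CPM. Its paralogue LIN28A was far more restricted, with 132 CPM in pluripotent-like nuclei, 28.2 in the WNT3A-led cluster, 10.7 in gut epithelium-like nuclei and 0.868 to 6.74 CPM in the other classes, the globin-led cluster (23.1 CPM) aside. Human UMIs in mouse nuclei gave 24.0 CPM of LIN28A (10.98 to 45.6) and 101 CPM of LIN28B (71.8 to 139). A UMI of LIN28A was found in 10.1% of WNT3A-led and 0.648% of mouse nuclei, at medians of 3619 and 259 human UMIs. Whether LIN28A was expressed outside pluripotent-like nuclei was not tested. In the finer clustering, with 2089 gut epithelium-like nuclei, LIN28A there was 2.18 CPM.

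DPPA4 stood at 406 CPM in pluripotent-like nuclei, 34.1 in the WNT3A-led cluster, 30.6 in schwann and neural crest-like nuclei and 15.3 in mesenchyme-like nuclei. Human UMIs in mouse nuclei gave 21.3 CPM of DPPA4 (9.22 to 42.1). Its summed levels outside pluripotent-like nuclei lay within or below this interval. A UMI of DPPA4 was found in 12.3% of WNT3A-led, 8.23% of schwann and neural crest-like and 0.576% of mouse nuclei. Depth differed too, at medians of 3619, 2581 and 259 human UMIs, so neither comparison separates expression from stray RNA. Whether DPPA4 was expressed outside pluripotent-like nuclei was not tested. The many mesenchyme-like nuclei held 25.1% of its UMIs, beside 24.4% in pluripotent-like nuclei. L1TD1, which derives from a LINE-1 element and binds RNA, stood at 496 CPM in pluripotent-like and 240 CPM in general epithelium-like nuclei, an epithelium led by GABRP, MUC16 and VTCN1. That epithelium was nearly confined to ΔATG 2 (621 of its 738 nuclei), where L1TD1 stood at 244 CPM, and WT 2 with 97 nuclei had 240 CPM. Schwann and neural crest-like nuclei followed with 65.4 CPM (50.3 to 160 over libraries), and human UMIs in mouse nuclei gave 42.7 CPM (24.4 to 69.3). A UMI of L1TD1 was found in 15.2% of the former and 1.01% of the latter nuclei. The part of stray RNA was not tested.

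Of the non-coding RNAs, MIR302CHG kept closest to the pluripotent-like nuclei, with 432 CPM there and 24.6 CPM or less in every other class. Gut epithelium-like nuclei had 17.6 CPM, ranging over libraries from 0 in ΔATG 1 to 86.9 in KO 1, and human UMIs in mouse nuclei gave 40.0 CPM. In the finer clustering MIR302CHG was 2.95 CPM in gut epithelium-like nuclei. Whether it was expressed outside pluripotent-like nuclei was not tested. XACT, a long RNA of the X chromosome, had 1197 CPM in pluripotent-like nuclei, 274 in gut epithelium-like (203 to 445 over libraries), 240 in choroid plexus-like (143 to 379) and 127 in endothelial-like nuclei, the last resting on 763 CPM in the 22 nuclei of KO 1. Gut epithelium-like nuclei held 25.1% of all XACT UMIs, more than the 19.3% in pluripotent-like nuclei. PCAT14, a long non-coding RNA first described in prostate cancer, had 238 CPM in pluripotent-like and 83.5 CPM in gut epithelium-like nuclei (26.8 to 227 over libraries), which held 42.5% of its UMIs. In the finer clustering gut epithelium-like nuclei had 41.9 CPM of PCAT14 and 184 CPM of XACT, and the larger pluripotent-like cluster 226 and 828 CPM, so the gut values depended on where the clusters were divided. Human UMIs in mouse nuclei gave 37.4 CPM of PCAT14 (20.4 to 62.7) and 48.0 CPM of XACT (28.5 to 75.9). Of these UMIs, 13 of 14 for PCAT14 and 11 of 18 for XACT came from ΔATG 2, which held 547 of the 1389 mouse nuclei. In the remaining classes PCAT14 was at or below 18.1 CPM.

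Across the 23 clusters, levels of POU5F1 followed those of MIR302CHG (Pearson r = 0.87 on log2(CPM + 1)), NANOG (0.85), LIN28A (0.83) and DPPA4 (0.80), and less those of LIN28B (0.40) and SOX2 (0.37). SOX2 followed LIN28B (0.74) and not L1TD1 (-0.07). Clusters share libraries and depth, so these are descriptions. Of genes outside the 10, those most like POU5F1 were the germ line and stem cell regulator PRDM14 (0.94), FOXH1, a partner of NODAL signalling (0.94), and the non-coding RNA HPAT5 (0.93). NANOG was most like PRDM14 (0.91), FOXH1 (0.91) and LNCPRESS2 (0.90), and MIR302CHG like TDGF1 (0.93), C13orf42 (0.91) and FOXH1 (0.91). SOX2 was most like NMU (0.94), PTPRZ1, a receptor phosphatase of neural progenitors (0.93), and SALL2 (0.92). LIN28A was most like the telomerase gene TERT (0.91), MDN1 (0.89) and ZNF121 (0.89), and LIN28B like LIN28B-AS1 (0.91), which overlaps it on the other strand, RAB39A (0.90) and AGO1 (0.90). DPPA4 was most like DIDO1 (0.85), RBPMS2 (0.84) and LYAR (0.83), and L1TD1 like ERI1 (0.83), MGA (0.82) and PABPC1 (0.82). XACT was most like DLGAP1-AS2 (0.79), ABCD4 (0.79) and PPFIA1 (0.75), and PCAT14 like the metallothionein genes MT1H (0.89) and MT1G (0.89) and like APELA (0.87).

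The comparison of genotypes asked whether loss or change of lncPRESS1 shifted the level of these genes in whole teratomas. UMIs were summed over all human nuclei of a library, and in such sums fewer cells of a type and less RNA per cell cannot be told apart. None of the 10 genes passed the test in any comparison (edgeR quasi-likelihood test, Benjamini-Hochberg adjusted over 26275 genes; lowest adjusted p for a member 1.00 for KO against WT, 1.00 for ΔATG against WT and 0.706 for ΔATG against KO). The share of all genes called was also 0% in each comparison, while 4.81%, 2.84% and 5.54% of genes, in the same order, had an unadjusted p under 0.05. Of the 10, this held for 1 (SOX2), 0 and 1 (LIN28B). DESeq2 called 152, 71 and 70 of all genes (0.578%, 0.27% and 0.266%) and 0 of the 10. Both comparisons with WT share the WT libraries, and both comparisons with KO the KO libraries.

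POU5F1 stood at 1.54 and 1.71 CPM in WT, against 3.59 and 0.603 in KO and 0.421 and 17.7 in ΔATG. ΔATG 2 was the highest and ΔATG 1 the lowest of the 6, so ΔATG overlapped both other groups. The log2 fold change was 0.35 (SE 1.53) for KO against WT and 2.70 (SE 1.60) for ΔATG against WT. Without ΔATG 2 the latter was -1.89, and without ΔATG 1 it was 3.64 (edgeR adjusted p = 0.0436), a fit in which the lone ΔATG library was assumed to vary like the others and which called 7.84% of all genes. NANOG stood at 1.23 and 0.98 CPM in WT, against 1.81 and 1.12 in KO and 1.14 and 4.15 in ΔATG. Only ΔATG 2 stood out, and the log2 fold change of ΔATG against WT was 1.44 (SE 0.74), 0.10 without ΔATG 2 and 2.11 without ΔATG 1 (edgeR adjusted p = 0.0276).

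SOX2 stood at 37.4 and 35.3 CPM in WT, against 64.8 and 46.1 in KO and 42.8 and 29.2 in ΔATG. Both KO libraries lay above both WT and both ΔATG libraries. The log2 fold change was 0.63 (SE 0.25) for KO against WT, with an edgeR adjusted p = 1.00, and -0.51 (SE 0.25) for ΔATG against KO. Of all genes, 23.1% lay higher in both KO than in both WT libraries without overlap. The SOX2-OT transcript around it had 424 and 556 CPM in WT, against 943 and 919 in KO and 643 and 493 in ΔATG. It was higher in both KO libraries too, with a log2 fold change of 0.95 (SE 0.25) against WT.

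LIN28A stood at 8.46 and 3.73 CPM in WT, against 10.7 and 2.38 in KO and 0.842 and 17.0 in ΔATG, with KO and ΔATG each spanning WT. LIN28B was steadier, at 109 and 112 CPM in WT, against 183 and 133 in KO and 70.1 and 86.4 in ΔATG. The 3 groups did not overlap, KO being highest and ΔATG lowest. Its log2 fold changes were 0.53 (SE 0.25) for KO against WT, -0.34 (SE 0.25) for ΔATG against WT and -0.87 (SE 0.25) for ΔATG against KO, the last with an edgeR adjusted p = 0.706. Of all genes, 11.7% were lower in both ΔATG than in both WT libraries, and 21.3% lower than in both KO libraries. Higher in both KO than in both WT libraries were 23.1%. These shares are for single pairs of groups, and the share of genes with all 3 groups in such an order was not counted. NANOG, SOX2, LIN28B, XACT and PCAT14 kept the direction of their difference between KO and WT under all 15 alternative settings, LIN28B between 0.35 and 0.69 and SOX2 between 0.43 and 0.80.

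The share of neural nuclei differed between libraries. LIN28B was high in all the neural classes and clusters named next. SOX2 was high in them except in neuron-like nuclei, where it stood at 23.6 CPM, against 42.7 CPM over all nuclei outside the pluripotent-like cluster. Neuron-like nuclei alone made up 5.96% and 8.35% of WT, 22.3% and 17.5% of KO, and 19.9% and 5.03% of ΔATG nuclei. Neuron-like and neural progenitor-like nuclei together with the WNT3A-led and RHEX-led clusters made up 22.8% and 22.1% of WT, 46.5% and 40.2% of KO, and 29.4% and 13.5% of ΔATG nuclei. KO libraries were the highest here, as for both genes. Within ΔATG the order of SOX2 was that of this share, while LIN28B was lower in ΔATG 1, the library with the larger share. The part of this share in the 2 genes' levels was not tested apart from the values within classes given below.

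DPPA4 stood at 20.4 and 17.0 CPM in WT, against 23.2 and 9.47 in KO and 6.79 and 37.8 in ΔATG. L1TD1 stood at 20.8 and 27.7 CPM in WT, against 35.6 and 21.7 in KO and 24.1 and 76.7 in ΔATG. For both genes ΔATG 2 was highest and the groups overlapped. L1TD1 of ΔATG against WT had a log2 fold change of 1.24 (SE 0.60), 0.04 without ΔATG 2 and 1.86 without ΔATG 1 (edgeR adjusted p = 0.0123). ΔATG 2 also held most of the general epithelium-like nuclei in which L1TD1 was high.

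MIR302CHG had the widest span among non-coding RNAs, at 11.4 and 9.65 CPM in WT, against 30.05 and 0.845 in KO and 0.541 and 20.1 in ΔATG. XACT stood at 97.7 and 70.2 CPM in WT, against 76.4 and 31.2 in KO and 24.9 and 122 in ΔATG. PCAT14 stood at 19.5 and 15.9 CPM in WT, against 13.8 and 2.65 in KO and 1.68 and 23.2 in ΔATG. The low library of each gene was KO 2 in KO and ΔATG 1 in ΔATG, the libraries with 2 and 1 pluripotent-like nuclei. PCAT14 was lower in both KO than in both WT libraries, as were 22.3% of all genes, with a log2 fold change of -1.12 (SE 1.22). MIR302CHG and XACT overlapped between all groups.

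**Figure D3:**
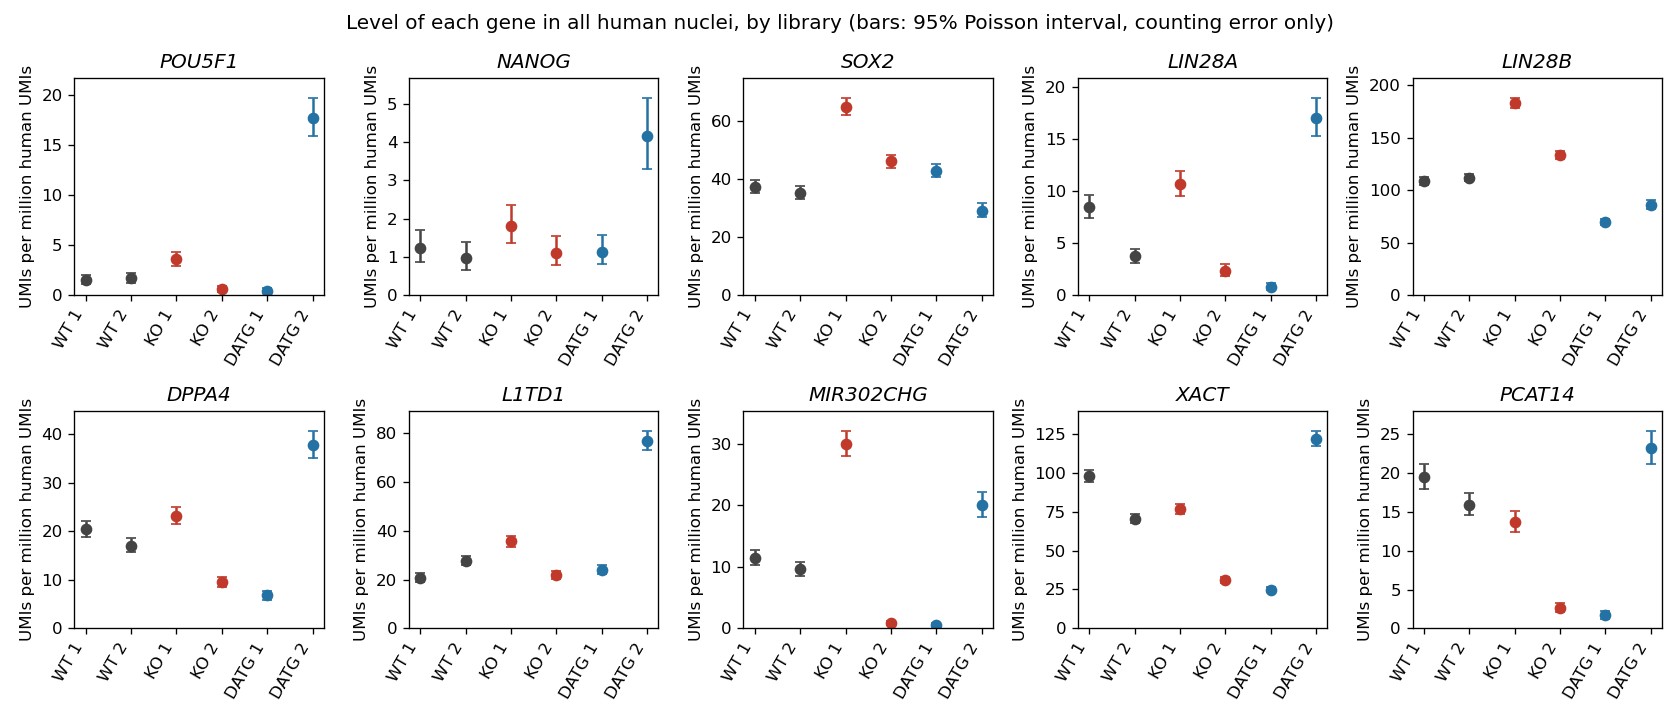
Level of each of the 10 genes in CPM, 1 point per library (grey WT, red KO, blue DATG), with 95% Poisson intervals that cover counting error only. KO 2 and ΔATG 1 lie low and ΔATG 2 lies high for POU5F1, LIN28A, DPPA4, MIR302CHG, XACT and PCAT14, while LIN28B is ordered KO, WT, ΔATG without overlap.

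Removing the 285 pluripotent-like nuclei moved the values of ΔATG against WT downwards for all 10 genes. For POU5F1 of ΔATG against WT the log2 fold change became 0.67 (SE 1.12) in place of 2.70 (SE 1.60), for DPPA4 -0.38 (SE 0.52) in place of 0.46 (SE 0.83), and for XACT -0.61 (SE 0.56) in place of 0.01 (SE 0.78). For KO against WT, SOX2 then had 0.63 (SE 0.29) and LIN28B 0.53 (SE 0.22). After this step again 0 of the 10 and 0% of 26132 genes were called by edgeR in each comparison, and 1 of the 10 (LIN28B, ΔATG against KO) had an unadjusted p under 0.05. ΔATG 2 still had 3.30 CPM of POU5F1 outside these nuclei, above the other libraries with 0.421 to 2.61 CPM.

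**Figure D4:**
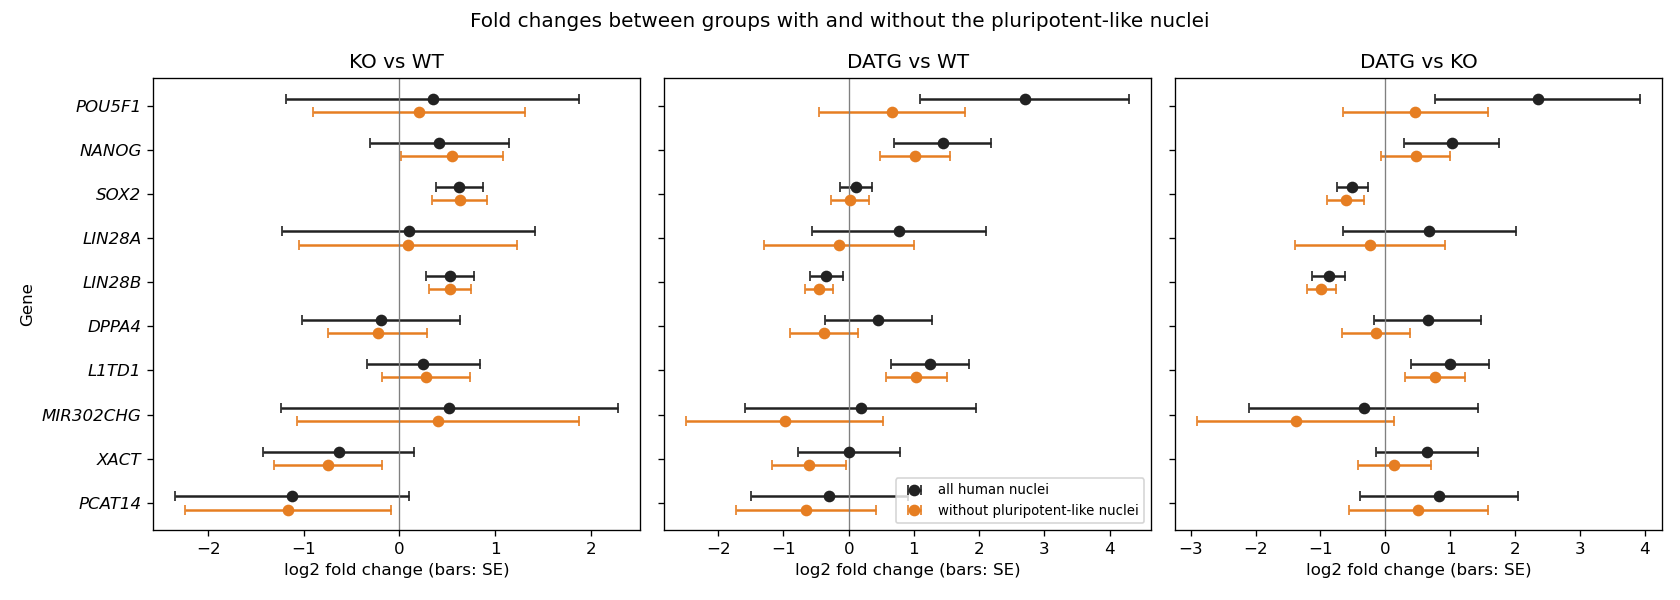
Log2 fold change and its standard error for each gene in the 3 comparisons, from all human nuclei (black) and without the pluripotent-like nuclei (orange). For ΔATG against WT the orange points of all 10 genes lie to the left of the black ones, and SOX2 and LIN28B hardly move in KO against WT.

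Within single classes edgeR also called 0 of the 10 genes. Tests were run in mesenchyme-like, neuron-like, smooth muscle and pericyte-like, and neural progenitor-like nuclei, where 9, 8, 5 and 6 of the 10 genes passed the filter on low counts. Of all genes, 1 was called in smooth muscle and pericyte-like nuclei for ΔATG against WT (0.00761%), 1 in neural progenitor-like nuclei for KO against WT (0.00821%) and 0 in the other tests (0%). Of the 84 tests of these genes, 7 (8.33%) had an unadjusted p under 0.05, beside 2.91% of all tests in these classes. L1TD1 in mesenchyme-like nuclei stood at 18.1 and 17.6 CPM in WT, against 49.4 and 46.8 in KO and 41.8 and 27.1 in ΔATG, so both changed genotypes lay above WT without overlap. The log2 fold change was 1.43 (SE 0.25) for KO and 1.05 (SE 0.25) for ΔATG, with edgeR adjusted p = 0.991 and 1.00. Non-overlap was common in this class, with 20.3% of genes higher in both KO and 11.4% higher in both ΔATG libraries than in both WT libraries. These levels lie near the 42.7 CPM of L1TD1 among human UMIs in mouse nuclei, and the part of stray RNA was not tested. DESeq2 called 1 of the 9 tested genes for KO against WT in this class, among 57 of all genes (0.285%).

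Mesenchyme-like nuclei were 3 clusters whose mix differed between libraries, and L1TD1 differed between them. In the cluster led by TBX15, PRRX1 and MKX it stood at 24.4 and 38.1 CPM in WT, against 50.6 and 68.5 in KO and 50.1 and 54.2 in ΔATG, with WT lowest. In the cluster led by ADAMTS14, GLP2R and CCDC102B it stood at 15.4 and 16.4 CPM in WT, against 43.4 (3 UMIs) and 28.3 in KO and 34.5 and 9.31 in ΔATG. In the cluster led by LINC02624, DKK2 and COL15A1 all libraries lay between 11.8 and 27.5 CPM and the groups overlapped. KO nuclei were mostly in the TBX15-led cluster (1863 of 1921 in KO 1 and 977 of 1711 in KO 2), WT nuclei mostly in the ADAMTS14-led cluster (817 of 1566 and 2697 of 4112).

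SOX2 in neural progenitor-like nuclei stood at 73.2 and 101 CPM in WT, against 137 and 124 in KO and 191 and 265 in ΔATG. The groups did not overlap, with ΔATG highest. Its log2 fold change was 1.30 (SE 0.31) for ΔATG against WT, with an edgeR adjusted p = 0.628, and 0.56 (SE 0.30) for KO against WT, with adjusted p = 1.00. Of all genes in this class, 12.2% were higher in both ΔATG than in both WT libraries, 17.0% higher in both KO than in both WT and 14.5% higher in both ΔATG than in both KO libraries. In neuron-like nuclei SOX2 stood at 15.2 and 28.7 CPM in WT, against 25.6 and 24.5 in KO and 22.4 and 12.5 in ΔATG, where both ΔATG libraries lay below both KO libraries, as did 18.1% of all genes in that class. WT 1, WT 2 and ΔATG 2 had 68, 140 and 46 neural progenitor-like nuclei, and KO 1 had 1034. LIN28B in neural progenitor-like nuclei showed no such order, at 146 and 223 CPM in WT, against 193 and 142 in KO and 121 and 306 in ΔATG.

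In neuron-like nuclei LIN28B did not follow the order of the whole tumour either, at 150 and 226 CPM in WT, against 209 and 205 in KO and 126 and 253 in ΔATG. In mesenchyme-like nuclei it stood at 55.7 and 38.0 CPM in WT, against 96.5 and 56.1 in KO and 34.6 and 36.6 in ΔATG, with KO 2 just above WT 1 and both ΔATG libraries below both KO libraries, as were 16.8% of all genes in that class. In the 4 tested classes its log2 fold change of KO against WT was 0.70 (SE 0.32, mesenchyme-like), 0.18 (SE 0.37, neuron-like), 0.76 (SE 0.47, smooth muscle and pericyte-like) and -0.16 (SE 0.38, neural progenitor-like). DPPA4 in neuron-like nuclei stood at 10.9 and 5.15 CPM in WT, against 5.06 and 1.97 in KO and 1.57 and 3.75 (11 and 3 UMIs) in ΔATG. WT 2 lay barely above KO 1. These levels lie below the 21.3 CPM of DPPA4 among human UMIs in mouse nuclei, and the part of stray RNA was not tested. XACT in the neuron-like nuclei stood at 51.0 and 13.97 CPM in WT, against 16.2 and 8.42 in KO and 8.29 and 10.0 (8 UMIs) in ΔATG, where WT 1 alone stood out. For ΔATG against WT the log2 fold changes of DPPA4 and XACT were -1.91 (SE 0.78) and -1.79 (SE 0.65), with edgeR adjusted p = 1.00 for both. Of all genes in this class, 12.4% were lower in both ΔATG than in both WT libraries.

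**Figure D5:**
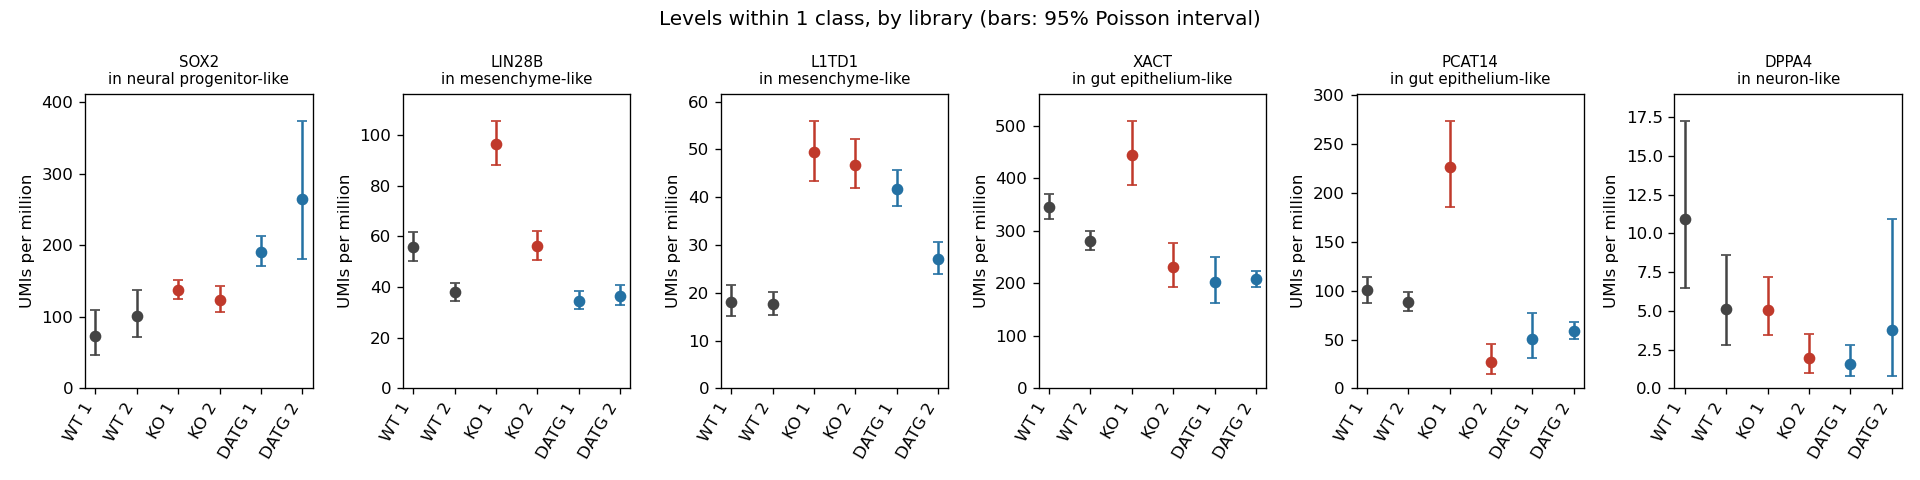
Levels of 6 gene and class pairs in CPM, 1 point per library with 95% Poisson intervals (grey WT, red KO, blue DATG). SOX2 in neural progenitor-like nuclei is ordered WT, KO, ΔATG, L1TD1 in mesenchyme-like nuclei lies lowest in both WT libraries, and KO 1 is highest for XACT and PCAT14 in gut epithelium-like nuclei.

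Other genes of the same state and pathways were read from lists, and edgeR called 0 genes of any list in any comparison. At an unadjusted p under 0.05 were 5 genes for KO against WT, 1 for ΔATG against WT and 5 for ΔATG against KO, of 69 different genes tested over all lists, beside 4.81%, 2.84% and 5.54% of all genes. Of 20 other pluripotency genes, 11 lay above 0 for KO against WT, 12 for ΔATG against WT and 13 for ΔATG against KO, with median log2 fold changes of 0.05, 0.07 and 0.25, beside 0.01, 0.02 and 0.02 over all genes. DNMT3B, which had the smallest p of this list for KO against WT, had a log2 fold change of 0.53 (SE 0.34). Of 3 tested non-coding RNAs of pluripotent cells, ESRG had -0.15 (SE 2.02) for KO and 2.15 (SE 2.08) for ΔATG against WT, with standard errors larger than those of POU5F1. LINC00678 had -1.11 (SE 1.12) and -0.89 (SE 1.14), and FOXD3-AS1 0.76 (SE 0.78) and 0.53 (SE 0.78). Of 7 tested genes of the naive state, 4 lay above 0 for KO against WT with a median of 0.08, and TFCP2L1, which had the smallest p, stood at -1.65 (SE 0.49).

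The 14 let-7 regulated genes, known targets of these microRNAs or of the LIN28 and let-7 pathway, had medians of 0.04, 0.01 and 0.00 in the 3 comparisons. The growth regulator HMGA2 had 0.43 (SE 0.27) for KO against WT, and the cyclin CCND2 had 1.17 (SE 0.40) for ΔATG against KO. The 16 genes of SOX2's subfamily and of neural stem cells, SOX2-OT among them, are given next. For KO against WT 15 of 16 lay above 0 with a median of 0.71 (51.3% of all genes lay above 0), and 10 of them were higher without overlap (23.1% of all genes), and for ΔATG against KO 0 of 16 lay above 0, with a median of -0.56 (51.9% of all genes lay above 0). For ΔATG against WT 9 of 16 lay above 0, with a median of 0.09. The share of neural nuclei given above was also highest in KO. Examples for KO against WT were PAX6, a regulator of forebrain and eye progenitors, at 0.82 (SE 0.25) and SOX21 at 1.06 (SE 0.39), neither of which passed the adjusted test. Of 10 germ cell genes 7 lay above 0 for KO against WT, with a median of 0.32, 4 for ΔATG against WT, with a median of -0.15, and 2 for ΔATG against KO, with a median of -0.22.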

How the data were processed

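Single-nucleus RNA was counted in 6 libraries, 2 each of WT, KO and ΔATG. The deposited matrices hold raw UMI counts per gene and barcode, which the authors made with version 8.0.1 of Cell Ranger (8.0.0 in the matrix headers) and the builds GRCh38 and GRCm38, per the submitters' processing notes. The sources used here do not give intron or strand settings.

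Nuclei with at least 500 UMIs, 300 genes and 90% of UMIs of 1 species were kept, and doublets were removed by comparison with simulated ones (5.20% to 10.8% per library). Nuclei were clustered with scanpy 1.11.5 (2000 variable genes without the 10 genes, 30 components, 20 neighbours, Leiden resolution 1, with 2 as an alternative). A type could name a cluster when at least 3 of its fixed markers, and more than 1/3 of its list, reached 2-fold and 20 CPM. Among such types, the one with most markers in the 10 leading genes was taken, then the one with the highest mean fold. The cluster stayed unnamed if those leading genes held more markers of another type. It also stayed unnamed if its depth was low and they held none of the type's markers. Levels are CPM of summed UMIs with 95% Poisson intervals, and shares of UMIs or nuclei have Clopper-Pearson intervals, for counting error only. A class was given a level in a library with at least 20 of its nuclei.

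UMIs were summed per library, over all human nuclei or 1 class, and tested with edgeR 4.0.16 (quasi-likelihood, TMM, 1 mean per group over all 6 libraries, Benjamini-Hochberg over all genes, threshold 0.05). In simulated data of the KO and WT comparison with 26275 genes, the test called 1 of 60 genes with a simulated 2-fold change, 21 of 73 with a 4-fold change and 46 of 67 with an 8-fold change. Alternatives were DESeq2 1.42.0, library totals, no filter, each library left out, 4 libraries only, a replicate block, and other sets of nuclei. The 10 genes and all lists were chosen with earlier results of these data known. All 10 genes are named, with the 3 genes most correlated with each over clusters. Genes named from a list test were picked from the 3 of smallest p in a comparison, or from any in lists of under 10 tested. Gene positions are from GENCODE 29 and sequences from RefSeq, both GRCh38.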

Additional observations from a re-analysis of the deposited data

Results flagged for a closer look

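The difference of ΔATG from KO in SOX2 had opposite signs in 2 classes. In neural progenitor-like nuclei both ΔATG libraries lay above both KO libraries, with a log2 fold change of 0.74, and in neuron-like nuclei both lay below, with -0.41. The difference of ΔATG from WT in L1TD1 also had opposite signs. It was 1.05 (SE 0.25) in mesenchyme-like nuclei, where both ΔATG libraries were higher, and -0.84 (SE 0.64) in neuron-like nuclei, where both were lower. The latter rested on 16 and 22 UMIs in WT and 33 and 4 in ΔATG. These were levels of 9.72 CPM or less, below the 42.7 CPM of L1TD1 among human UMIs in mouse nuclei. The part of stray RNA was not tested. Of all genes in neuron-like nuclei, 12.4% were lower in both ΔATG than in both WT libraries. For neither gene was the difference between the classes tested.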

How the results depend on the processing

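Of 30 differences between groups (10 genes, 3 comparisons), 10 kept their direction under all 15 alternative settings and 20 reversed in at least 1. Leaving out each library in turn, with the lone sample of a group assumed to vary like the other groups, gave 0 to 3 of the 10 genes called for ΔATG against WT and 0 to 4 for ΔATG against KO, the highest without ΔATG 1 (7.84% and 23.4% of all genes called). The genes were POU5F1, NANOG and L1TD1, and against KO also DPPA4. For KO against WT the log2 fold changes then ran from -1.34 to 1.104 for POU5F1, -1.26 to 0.78 for LIN28A, -0.90 to 0.27 for DPPA4, -0.072 to 0.52 for L1TD1 and -3.55 to 1.48 for MIR302CHG. For ΔATG against WT they ran from -1.89 to 3.64 for POU5F1, -0.12 to 0.29 for SOX2, -2.79 to 1.69 for LIN28A, -1.41 to 1.21 for DPPA4, -4.22 to 1.13 for MIR302CHG, -1.70 to 0.74 for XACT and -3.34 to 0.59 for PCAT14. For ΔATG against KO they ran from -2.20 to 4.03 for POU5F1, -0.29 to 1.72 for NANOG, -2.85 to 2.03 for LIN28A, -1.18 to 1.44 for DPPA4, -0.18 to 1.64 for L1TD1, -4.70 to 3.73 for MIR302CHG, -1.03 to 1.41 for XACT and -2.18 to 2.35 for PCAT14.

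For ΔATG against WT, library totals as scaling gave -0.014 for SOX2, -0.042 for MIR302CHG and -0.20 for XACT, no filter on low counts gave -0.016 for XACT, and keeping called doublets gave 0.28 for PCAT14. Without the pluripotent-like nuclei LIN28A had -0.15, DPPA4 -0.38, MIR302CHG -0.98 and XACT -0.61, and for ΔATG against KO LIN28A had -0.24 and DPPA4 -0.15. Both following settings were chosen after seeing the data. Without low-depth clusters XACT had -0.017 for ΔATG against WT. Without the 758 nuclei of the finer pluripotent-like cluster the values for ΔATG against WT were -0.00036 for SOX2, -0.38 for LIN28A, -0.36 for DPPA4, -1.46 for MIR302CHG and -0.75 for XACT, and for ΔATG against KO -0.63 for LIN28A, -0.15 for DPPA4 and -0.10 for XACT. Within mesenchyme-like nuclei DESeq2 called 1 of the 10 genes for KO against WT, where edgeR called 0. The cause of these changes was not tested.

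Libraries of the same number share only that number: their deviations from the group means correlated at 0.10 (WT and KO), -0.13 (WT and ΔATG) and 0.43 (KO and ΔATG). With the replicate number as a block, 0 of the 10 genes were called in each comparison, SOX2 of KO against WT had 0.61 (edgeR adjusted p = 0.788) and XACT of ΔATG against WT had -0.075. Few counts limit POU5F1, MIR302CHG, LIN28A and NANOG, with 14, 18, 28 and 31 UMIs in their poorest libraries.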
